A study of Homo sapiens with 16 samples.

Results

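The regions described here are INTS13 ChIP-seq peaks of HEK293T cells that lay at genes and overlapped a peak in every other list of the study. They were chosen from the INTS13 list of cells given a control depletion. A peak on chromosomes 1 to 22 was taken when it shared at least 1 base with a peak in each of the other 4 lists and when its summit, the position of highest signal, lay inside a protein-coding RefSeq gene or within 5 kb of it. Of the 27451 INTS13 control peaks on these chromosomes, 13176 met the gene condition, 3669 (13.4%) met the condition on the lists, and 1376 met both, which is 10.4% of the peaks near genes. These 1376 regions are called members below.

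HEK293T is an established human embryonic kidney line, wild type in every group per the labels. INTS13 was immunoprecipitated with a Bethyl Laboratories antibody from cells after a control depletion and from cells in which HDGF had been knocked down for 72 h by a pool of small interfering RNAs (siPOOL), and with a Proteintech antibody from cells kept for 24 h in medium without glucose. HDGF was immunoprecipitated with a Proteintech antibody from cells after a control depletion and from cells starved in the same way. These 5 ChIP groups had 2 labelled replicates each and a single deposited peak list each, which leaves no replicate error and no test between conditions. Antibody and starvation cannot be told apart for INTS13, and the lists carry no measure of how far HDGF was depleted. The labels name a control depletion for the control cells and no depletion for the starved cells. Starvation and the lack of a control depletion thus cannot be told apart for either protein.

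INTS13 is a subunit of Integrator, the complex that cuts nascent RNA at small nuclear RNA (snRNA) genes and ends transcription by paused RNA polymerase II at many protein-coding genes. HDGF is a growth factor that also binds chromatin and carries a PWWP domain, a fold found in readers of histone methylation. A ChIP-seq peak marks sequence recovered more often than a background, and a region found in lists of both proteins shows that reads of both were enriched there, not that the proteins were bound to the same molecule of DNA. The series asked whether starvation, or the movement or loss of HDGF, goes with a movement of INTS13, and the members are regions that had a peak in the lists of all conditions.

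Few members lay at the promoters listed. Of 21156 RefSeq promoter windows (250 bases before to 50 after a listed start, GRCh38.p14), 44 windows of 32 genes shared a base with a member, and 23 windows of 20 genes also held a peak of each of the 5 lists. The windows belong to 15101 of the 19126 protein-coding genes, so promoters of the other genes are not counted. The 250 bases upstream of the start are shown for H3-4 and LYST, at which the summits of all 5 lists lay within 500 bp of the start, for COX20, FBXO28, ACBD3 and H3-3A, at which they lay within 1 kb, and for PARP1 and PCDH9, which held many members. All are from RefSeq, read 5′ to 3′ on the strand of the gene. Capitals mark any of 6 short motifs on either strand: the GC box GGGCGG, the CCAAT box, the TATA box TATAAA, the core CCGGAAG bound by ETS factors, the cAMP response element TGACGTCA and the E-box CACGTG.
H3-4: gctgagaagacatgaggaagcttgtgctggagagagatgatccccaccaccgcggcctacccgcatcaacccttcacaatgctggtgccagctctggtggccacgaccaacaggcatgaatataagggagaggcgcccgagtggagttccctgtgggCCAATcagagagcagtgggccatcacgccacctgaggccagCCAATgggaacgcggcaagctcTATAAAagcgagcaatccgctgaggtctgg
LYST: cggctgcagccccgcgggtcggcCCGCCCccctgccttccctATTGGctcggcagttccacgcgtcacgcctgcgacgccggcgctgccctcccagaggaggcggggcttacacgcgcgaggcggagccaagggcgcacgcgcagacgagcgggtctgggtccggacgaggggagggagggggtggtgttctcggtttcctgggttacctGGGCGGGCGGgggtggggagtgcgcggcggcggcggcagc
COX20: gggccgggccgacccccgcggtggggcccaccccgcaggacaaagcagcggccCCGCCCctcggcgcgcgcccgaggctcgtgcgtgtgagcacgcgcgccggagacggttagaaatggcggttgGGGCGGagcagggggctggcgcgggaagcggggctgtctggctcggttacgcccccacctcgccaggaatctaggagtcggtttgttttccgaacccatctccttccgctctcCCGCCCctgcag
FBXO28: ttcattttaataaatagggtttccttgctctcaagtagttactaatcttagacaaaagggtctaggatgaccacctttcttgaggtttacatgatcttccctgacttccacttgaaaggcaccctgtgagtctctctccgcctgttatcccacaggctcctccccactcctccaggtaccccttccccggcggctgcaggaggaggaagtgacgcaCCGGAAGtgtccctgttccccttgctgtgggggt
ACBD3: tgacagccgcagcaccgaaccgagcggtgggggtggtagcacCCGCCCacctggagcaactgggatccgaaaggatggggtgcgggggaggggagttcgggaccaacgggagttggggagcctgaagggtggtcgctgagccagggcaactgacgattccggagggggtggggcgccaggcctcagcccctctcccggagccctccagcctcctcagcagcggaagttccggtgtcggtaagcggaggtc
H3-3A: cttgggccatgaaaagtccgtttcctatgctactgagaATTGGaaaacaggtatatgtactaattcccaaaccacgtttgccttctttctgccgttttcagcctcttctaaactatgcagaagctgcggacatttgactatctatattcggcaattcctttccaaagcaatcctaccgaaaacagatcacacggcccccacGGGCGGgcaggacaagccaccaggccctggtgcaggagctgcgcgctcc
PARP1: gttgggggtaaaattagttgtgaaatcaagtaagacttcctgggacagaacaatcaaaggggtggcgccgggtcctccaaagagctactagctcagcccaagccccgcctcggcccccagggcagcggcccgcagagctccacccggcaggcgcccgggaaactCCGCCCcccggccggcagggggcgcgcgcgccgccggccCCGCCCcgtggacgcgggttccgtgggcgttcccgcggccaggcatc
PCDH9: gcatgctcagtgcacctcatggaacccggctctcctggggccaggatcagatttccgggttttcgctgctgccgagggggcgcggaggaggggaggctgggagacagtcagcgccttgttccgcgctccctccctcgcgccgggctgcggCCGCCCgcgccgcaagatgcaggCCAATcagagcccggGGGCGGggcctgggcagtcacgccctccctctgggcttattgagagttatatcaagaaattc
The coordinates of these upstream sequences were chr1:228425361-228425610 for H3-4 (minus strand), chr1:235866907-235867156 for LYST (minus strand), chr1:244835226-244835475 for COX20 (plus strand), chr1:224113861-224114110 for FBXO28 (plus strand), chr1:226186742-226186991 for ACBD3 (minus strand), chr1:226061581-226061830 for H3-3A (plus strand), chr1:226408094-226408343 for PARP1 (minus strand) and chr13:67230337-67230586 for PCDH9 (minus strand).

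In the 250 bases upstream of the start, GGGCGG was found in 61.4% of the 44 windows with a member and in 54.0% of all windows, CCAAT in 22.7% and 32.4%, TATAAA in 4.55% and 9.03%, and CCGGAAG in 22.7% and 10.7%. TGACGTCA was found in 0% of the 44 and in 2.05% of all, and CACGTG in 4.55% and 7.34%. Both strands were searched, and no motif of the set contains another. Median GC content was 67.8% in the 44 windows and 62.0% in all, and the median number of CpG dinucleotides was 23.5 against 17. In the 23 windows with a peak of every list the shares were 52.2% for GGGCGG, 30.4% for CCAAT and 13% for CCGGAAG, with a median GC content of 64.8% and 13 CpGs. Several windows belong to the same gene or to neighbouring genes, so the counts describe these windows.

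At the start of H3-4, a clustered histone H3 gene, the INTS13 summits lay at -86, 10 and 310 bp from the start in control, HDGF-depleted and starved cells, with folds of 3.24, 4.43 and 3.24. Fold is the authors' enrichment over background at the summit. The HDGF summits there lay at -304 and 165 bp in control and starved cells, with folds of 2.86 and 4.06. At LYST, which encodes a regulator of lysosomal trafficking, all 5 summits lay upstream of the start: INTS13 at -354, -394 and -368 bp with folds of 3.92, 4.62 and 3.59, and HDGF at -75 and -239 bp with folds of 2.34 and 3.34. The 3 INTS13 summits at LYST thus sat closer to each other than to either HDGF summit. The HDGF control peak there ended at 235867133, and the INTS13 control interval began at 235867132, so they barely overlapped. Its fold of 2.34 was also the lowest HDGF control fold of the members.

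At FBXO28, a substrate adaptor of an SCF ubiquitin ligase, INTS13 summits lay at 39, 5 and 37 bp with folds of 6.22, 5.20 and 7.0. The first of these was the highest INTS13 control fold among the 44 windows. The HDGF peaks in the window had summits at -578 and -297 bp and folds of 4.55 and 2.36. The second of these ended at 224113916 and did not reach the member, which began at 224114009. The HDGF starvation peak that overlapped the member, at 224114183 to 224114647, had a fold of 3.07 and its summit downstream of the start. COX20, which encodes an assembly factor of cytochrome c oxidase, had INTS13 summits at -116, 254 and -83 bp with folds of 3.78, 2.69 and 5.90, and HDGF summits at -541 and -357 bp with folds of 2.60 and 2.90. ACBD3, a Golgi scaffold protein, had INTS13 and HDGF control summits at 140 and -580 bp, with folds of 3.92, 5.97 and 4.46 for INTS13 and 4.29 and 3.88 for HDGF. H3-3A, a gene for the replacement histone H3.3, had them at 182 and -591 bp, with folds of 3.11, 4.23 and 4.51 for INTS13 and 5.46 and 5.04 for HDGF. At FBXO28, COX20, ACBD3 and H3-3A the HDGF control summit lay upstream of the INTS13 control summit, and at LYST it lay downstream of it.

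The genes above were picked because all 5 summits lay near the start, so summits farther away at other genes follow from that choice. PARP1 encodes the main poly(ADP-ribose) polymerase of the DNA damage response. Its INTS13 summits lay at -347, -349 and -380 bp with folds of 5.41, 6.93 and 5.21, while the HDGF summits lay at -1458 bp in control cells and 7179 bp inside the gene in starved cells, with folds of 3.38 and 5.22. PCDH9, a protocadherin of cell adhesion, had INTS13 summits at 90, 119 and -296 bp with folds of 4.86, 5.00 and 5.21, and the HDGF intervals that reached its promoter had their summits 12145 and 2085 bp inside the gene, with folds of 5.60 and 4.69. At both genes an HDGF interval reached the promoter while its summit lay over 1 kb away. The same held for HDGF starvation intervals at KCNJ4, PSEN2 and GUK1, with summits 2458, 4084 and 4683 bp from the start.

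Most members lay in gene bodies, not at starts. Of the 1376 members, 1191 (86.6%, exact Clopper-Pearson 95% interval 84.6 to 88.3%) had their summit inside the gene, 68 lay upstream, 69 downstream and 48 beside genes whose strand the promoter table does not give. The share inside was 89.3% (88.8 to 89.9%) for the 11800 other INTS13 control peaks near genes. Within 1 kb of either end of a gene lay 9.23% of members (7.75 to 10.9%), against 7.33% (6.87 to 7.82%) of the other peaks near genes and 5.06% (4.29 to 5.92%) of the 2926 that were in no other list. Promoter windows held 2.25% of members (1.54 to 3.18%), 2.57% of the other peaks near genes (2.29 to 2.87%) and 1.67% of the peaks in no other list (1.24 to 2.21%), and the members' interval overlaps both of the others. Only 1147 members were given to genes with a listed start. Of these, 57 at 49 genes lay within 1 kb of such a start. Another 663 of them (48.2% of all members) lay inside a gene and over 10 kb from either end. The intervals cover counting error only, and since members lie next to each other they are not independent and the intervals are too narrow.

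The members were concentrated in a few places in the genome. They were nearest to 229 of 19126 protein-coding genes (1.20%). Of these, 97 genes had a single member, and 32 genes with at least 10 members each held 894 of the 1376. When members within 10 kb of each other were joined, they formed 336 loci, of which 193 held a single member and 30 held at least 10, for 789 members in all. Joined over gaps of up to 1 Mb, a distance chosen after the positions were seen, they formed 45 blocks. The 8 fullest blocks held 1238 members (90.0%) on 21.6 Mb, and 138 members (10.0%) lay elsewhere.

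**Figure D1:**
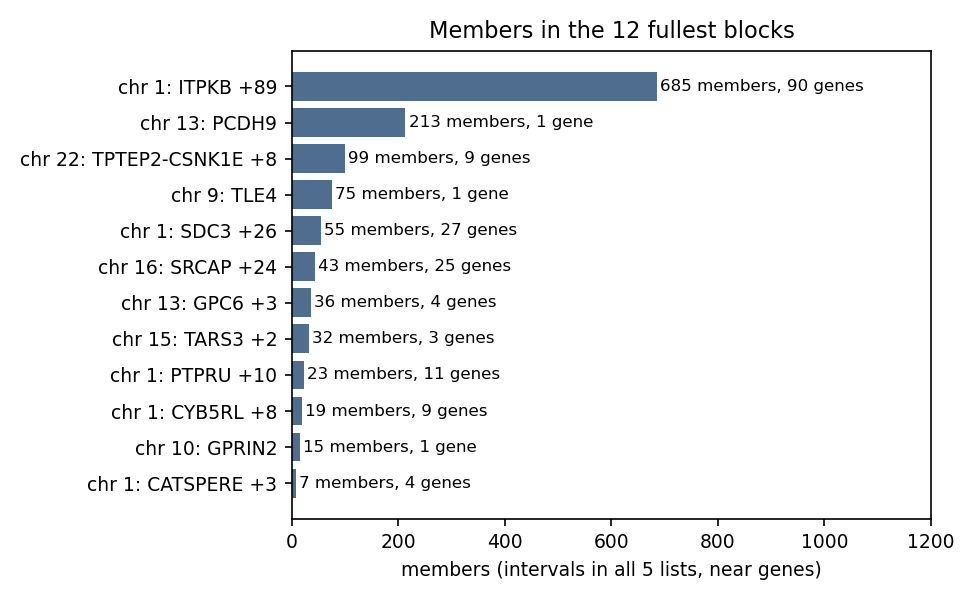
Number of members (horizontal axis) in the 12 fullest blocks, each named by its chromosome and the gene with the most members, with the number of further genes after a plus sign and the numbers of members and genes beside each bar. The block on chromosome 1 with ITPKB held 685 members at 90 genes, and the block of PCDH9 held 213 at a single gene.

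Chromosome 1 held 806 members (58.6%) with 10.8% of the protein-coding genes, chromosome 13 held 267 (19.4%) with 1.77%, and chromosome 22 held 99 (7.19%) with 2.36%. Chromosomes 9, 16, 15 and 10 held 79, 43, 33 and 15, and chromosomes 2, 8, 11, 12, 14, 17 and 20 held 0. The 3 fullest chromosomes together held 85.2% of members, 72.8% of the other INTS13 control peaks near genes, 55% of the peaks near genes in no other list, and 77.0% of the 2293 peaks that were in all 5 lists far from genes. The other INTS13 control peaks were thus unevenly spread as well.

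The fullest block covered chromosome 1 from 223138524 to 236901450 and held 685 members (49.8%) at 90 genes of the 105 protein-coding genes there. Genes named here for the number of their members were chosen after these counts were seen. ITPKB, a kinase of inositol trisphosphate, had 53 of its 81 INTS13 control peaks among the members, SNAP47, a SNARE protein, 35 of 51, PARP1 31 of 45 and the ion channel gene TMEM63A 25 of 31. Developmental signalling genes lay in the same block: WNT3A and WNT9A, which encode secreted WNT ligands, had 22 and 15 members, LEFTY2 and LEFTY1, which encode Nodal antagonists, 9 and 3, and the homeobox gene MIXL1 had 6. ARF1, a small GTPase of Golgi transport, had all 12 of its INTS13 control peaks among the members. PSEN2, the presenilin 2 subunit of gamma-secretase, had 16 of 32, and COQ8A, needed for coenzyme Q synthesis, 19 of 37.

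Folds in these genes were modest in every list. At ITPKB the median member fold was 3.24 (range 2.70 to 4.05) for INTS13 in control cells, 4.23 (2.89 to 6.16) after HDGF depletion and 3.59 (2.61 to 4.74) in starved cells. HDGF at ITPKB had medians of 3.51 (2.60 to 4.81) in control and 4.33 (3.07 to 5.22) in starved cells. At WNT3A the INTS13 medians were 3.31, 4.23 and 4.02 and the HDGF medians 3.12 and 4.24 in the same order of conditions. At SNAP47 they were 3.11, 4.04 and 3.76 for INTS13 and 3.90 and 4.96 for HDGF. At these 3 genes the HDGF fold of the members was higher in the starvation list than in the control list. At ENAH, an actin regulator in the same block, the HDGF medians were 5.20 in control and 3.43 in starved cells, the opposite order, and at ACBD3 they were 5.07 and 3.57. Folds of different lists have different backgrounds, so they order members within a list and do not measure a change between conditions.

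PCDH9 held 213 members (15.5%), all inside the gene, out of 545 INTS13 control peaks, over 928 kb of chromosome 13. Member folds there ran from 2.84 to 5.00 for INTS13 in control cells (median 3.78), from 2.89 to 6.35 after HDGF depletion (median 4.43) and from 2.61 to 5.26 in starved cells (median 3.18). For HDGF they ran from 2.73 to 6.38 in control cells (median 5.07) and from 2.45 to 5.49 in starved cells (median 3.52). HDGF control peaks covered 94.8% of the block and HDGF starvation peaks 52.5%, while INTS13 peaks covered 32.4%, 21% and 21.9% in control, depleted and starved cells. With HDGF control peaks called over nearly the whole block, all 538 INTS13 control peaks of the block shared a base with that list, 88.7% did so with HDGF starvation, 63.4% with INTS13 after depletion and 53.9% with INTS13 in starvation.

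TLE4, which encodes a corepressor of the Groucho family, held 75 members out of 104 INTS13 control peaks, over 155 kb of chromosome 9. There HDGF control peaks covered 98.5% of the block, HDGF starvation peaks 87.9%, and INTS13 peaks 66.3%, 56.3% and 51.0% in control, depleted and starved cells. The HDGF control intervals at TLE4 were 53.9, 52.9 and 52.2 kb long, with folds of 6.25, 6.38 and 6.51, and took in 26, 24 and 24 members. All 75 members thus met only 4 distinct HDGF control intervals, and 35 in HDGF starvation. Member folds at TLE4 had medians of 4.19, 5.00 and 3.30 for INTS13 in control, depleted and starved cells, and the HDGF medians were 6.38 and 4.60 in control and starved cells.

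**Figure D2:**
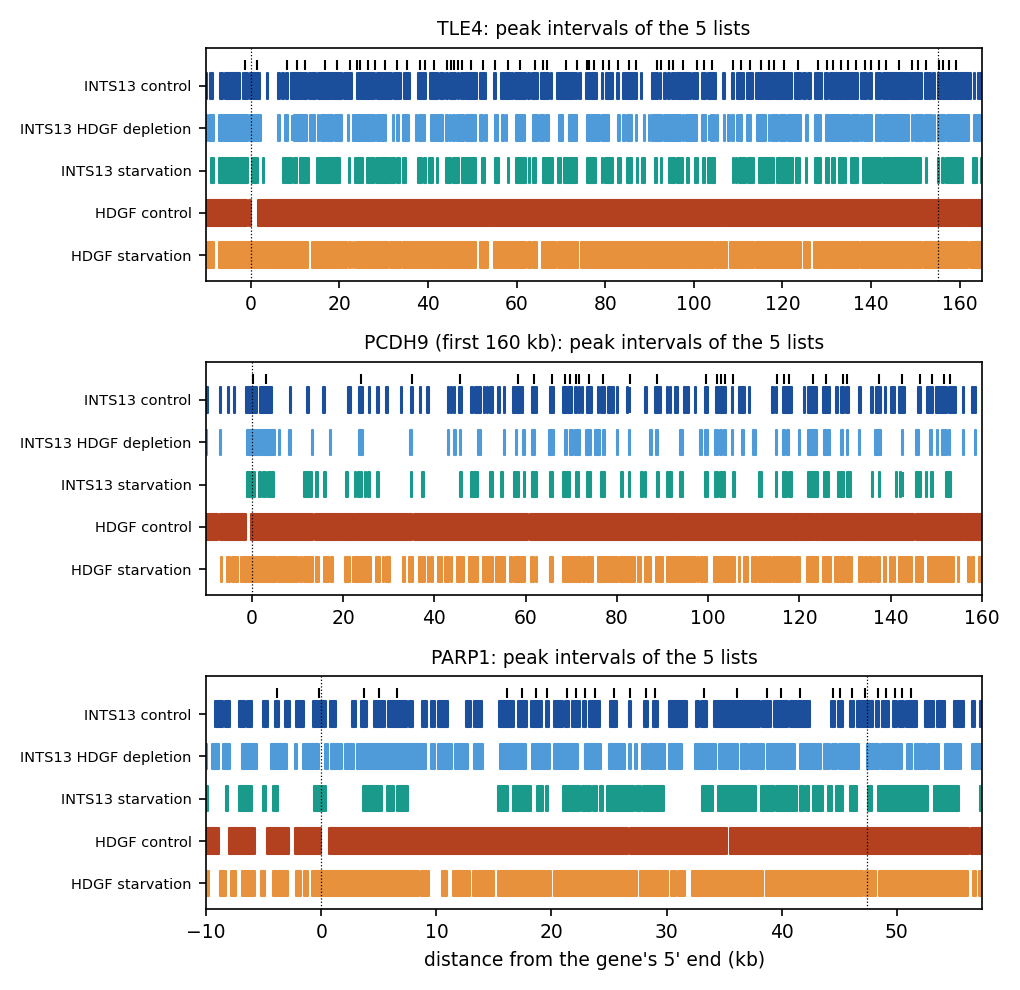
Peak intervals of the 5 lists (coloured bars) by distance from the 5′ end of TLE4, PCDH9 and PARP1 in kb. Black ticks mark the midpoints of member intervals. Dotted lines mark gene ends, for PCDH9 only the 5′ end. HDGF control intervals run almost without a break over TLE4 and the shown part of PCDH9, where the INTS13 intervals are shorter and leave gaps. At TLE4 the INTS13 intervals still cover 66.3%, 56.3% and 51.0% of the block in control, depleted and starved cells.

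On chromosome 22, from 38071696 to 38545566, 99 members lay at 9 genes. TPTEP2-CSNK1E, a readthrough gene that overlaps CSNK1E (casein kinase 1 epsilon), had 32, KCNJ4, an inward rectifier potassium channel gene, 24, TMEM184B 23 and CSNK1E itself 9. Because the genes overlap, a member was given to the gene with the nearer end. A 21.1 kb HDGF control interval at CSNK1E took in 15 members and a 19.6 kb HDGF starvation interval at TPTEP2-CSNK1E took in 13. KCNJ4 had 24 of its 30 INTS13 control peaks among the members, with median folds of 3.31, 4.62 and 3.44 for INTS13 and 3.38 and 4.37 for HDGF.

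Other blocks were spread over more genes. A block at 30707094 to 33488905 of chromosome 1 held 55 members at 27 genes, among them the heparan sulfate proteoglycan gene SDC3 with 6, the zinc finger gene ZNF362 with 6, the T cell kinase gene LCK with 3 and the histone deacetylase gene HDAC1 with 1. On chromosome 16, at 29805072 to 31038486, 43 members lay at 25 genes, including the chromatin genes SRCAP (a histone exchange ATPase, 6 members), BCL7C (a BAF complex subunit, 4), RNF40 (a histone H2B ubiquitin ligase, 4) and SETD1A (a histone H3 methyltransferase, 3). Chromosome 13 had a further block with the glypican gene GPC6 (23 members) and the melanin synthesis gene DCT (11), and chromosome 15 had TARS3, a threonyl-tRNA synthetase gene, with 28 of its 56 INTS13 control peaks. Of the INTS13 control peaks near genes, 8.30% were members in the block of SDC3, 13.3% in that of SRCAP, 12.7% in that of GPC6 and 46.4% in that of TARS3. The share was 72.1% in the block of TLE4 and 49.0% in the block on chromosome 22.

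The blocks were covered by peaks of every list far above the level of the chromosomes. Blocks were built from members, and by the rule each member overlaps a peak of every list. Coverage above the level of the chromosomes thus follows in part from that choice. Over chromosomes 1 to 22, peaks covered 0.390% of bases for INTS13 control, 1.30% for its depletion list, 0.276% for INTS13 starvation, 1.82% for HDGF control and 1.17% for HDGF starvation. In the fullest block on chromosome 1 the same lists covered 19.4%, 37.4%, 13.1%, 42.0% and 32.3%. In the block on chromosome 22 they covered 24.7%, 46.4%, 23.2%, 53.5% and 54.3%. Of the 8 fullest blocks the one with GPC6 and DCT had the lowest coverage, at 7.16%, 11%, 2.86%, 23% and 8.46%. Coverage here is that of called peaks of both proteins, and the input samples of these blocks were not analysed, so it is not a measure of binding. The part of this coverage in the overlap of the lists was not tested.

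**Figure D3:**
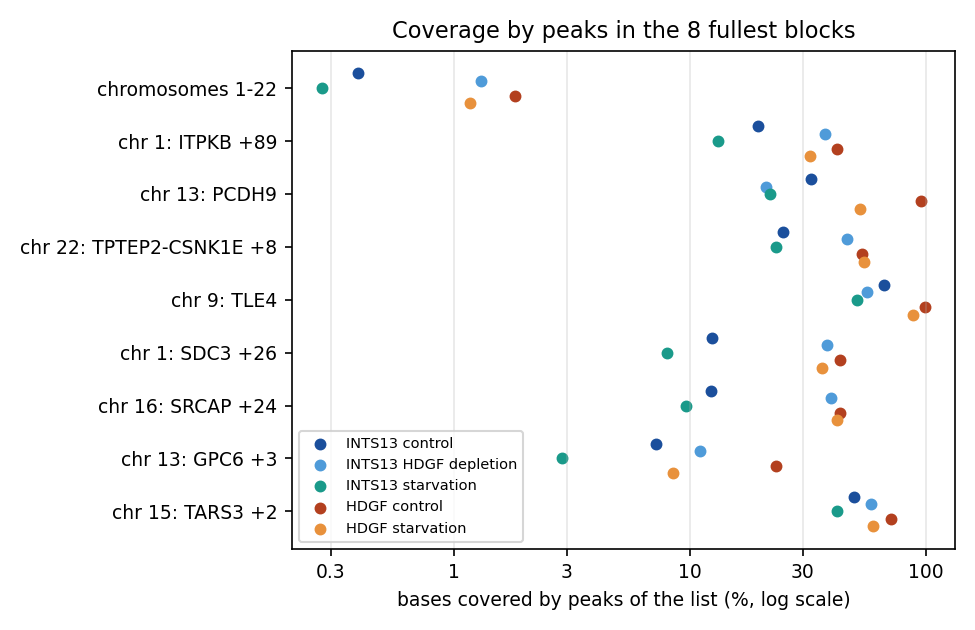
Bases covered by the peaks of each list (horizontal axis, percent, log scale) over chromosomes 1 to 22 and in the 8 fullest blocks; each point is a list. Every block lies to the right of the chromosome-wide points, which follows in part from building blocks from members. HDGF control covers 94.8% of the PCDH9 block and 98.5% of the TLE4 block.

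The INTS13 starvation list was the limiting list. Of the 13176 INTS13 control peaks near genes, 54.8% shared a base with the INTS13 list of HDGF-depleted cells, 53.1% with HDGF control, 46.9% with HDGF starvation and 19.4% with INTS13 starvation. Over all 27451 INTS13 control peaks the shares were 53.0%, 50.1%, 44.9% and 24.2% in the same order. Of the 2767 that were missing from a single list, 2093 (75.6%) were missing from INTS13 starvation, 372 (13.4%) from HDGF control, 233 (8.42%) from INTS13 after HDGF depletion and 69 (2.49%) from HDGF starvation. The INTS13 starvation list was also the shortest, with 14817 peaks on chromosomes 1 to 22, against 98301 for INTS13 after depletion, 103880 for HDGF control and 66040 for HDGF starvation. Without it, 3469 peaks near genes would meet the rule.

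Folds of the members differed between lists in how high they ranked. The median member fold was 3.38 (range 2.43 to 10.0) in INTS13 control, where the median of all peaks was 3.11. It was 4.23 (2.69 to 10.8) in INTS13 after depletion, against 3.27 for that list, and 3.24 (2.43 to 10.1) in INTS13 starvation, against 2.95. It was 4.03 (2.34 to 10.1) in HDGF control, against 2.86, and 3.97 (2.36 to 12.7) in HDGF starvation, against 2.90. In their own lists, 17.2% of the INTS13 control peaks ranked in the top 10% by −log10 q, compared with 55.9% of the strongest overlapping peaks in INTS13 after depletion, 24.9% in INTS13 starvation, 62.9% in HDGF control and 71.0% in HDGF starvation. The rule picked the peaks and several members can share a peak, so these are descriptions.

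**Figure D4:**
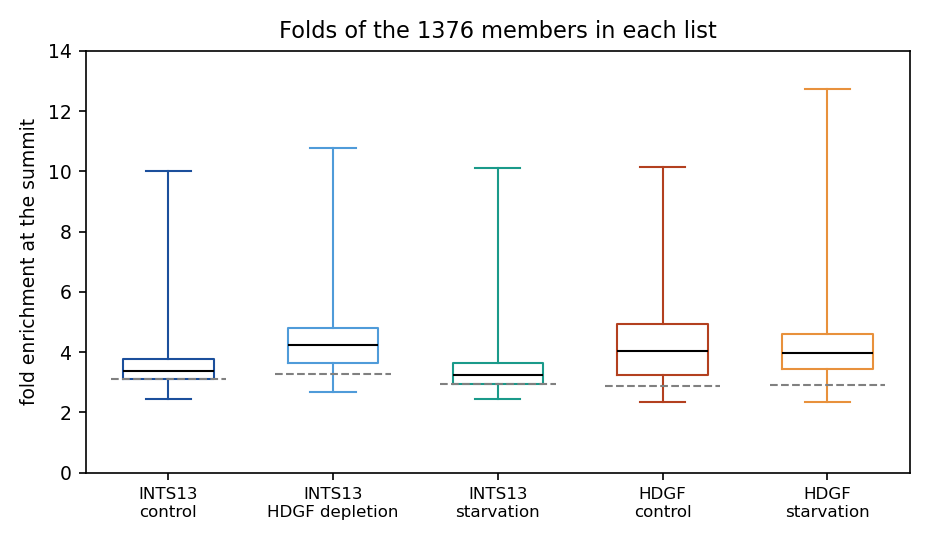
Fold enrichment at the summit (vertical axis) of the 1376 members in each list, taking the strongest overlapping peak; boxes span the quartiles with the median as a black line, whiskers the full range, and dashed grey lines the median of all peaks of the list. The member medians of 3.38, 4.23, 3.24, 4.03 and 3.97 all lie above the dashed lines, and the boxes lie below a fold of 6.

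The order of members by fold was only loosely shared between lists. Over the 1376 members, Spearman's rho was 0.54 between INTS13 starvation and HDGF starvation, 0.39 between INTS13 control and HDGF control, 0.37 between INTS13 after depletion and HDGF control, 0.29 between INTS13 control and INTS13 after depletion, 0.17 between INTS13 control and INTS13 starvation, and 0.06 between INTS13 starvation and HDGF control. Members share intervals and each list has a single set of libraries, so these values describe the lists. Folds also come in steps: the members took 32 distinct values in INTS13 control and 36 in HDGF control, and in every list each fold had a single p-value and 0 folds had more. The folds thus show no background that varied from place to place within a list. Whether they were corrected for local input signal was not tested.

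Few members had the summits of all 5 lists close together. The INTS13 summit after HDGF depletion lay within 250 bp of the control summit for 662 members (48.1%) and the INTS13 starvation summit for 679 (49.3%), compared with 474 (34.4%) for HDGF starvation and 373 (27.1%) for HDGF control. The median distances were 271, 255.5, 442.5 and 607 bp in the same order. All 5 summits lay within 250 bp of each other for 37 members (2.69%, 1.90 to 3.69%) at 29 genes, against 206 (8.98%, 7.84 to 10.2%) of the 2293 peaks in all lists far from genes. Without the INTS13 starvation list the share was 6.63%, but of a larger set of 3469 peaks and over the summits of the remaining lists only. The share among members was 7.35% without chromosomes 1, 13 and 22, and 13% without the 8 fullest blocks, the last of which is above the share far from genes. The share far from genes was not recomputed under these alternatives. The median spread of the 5 summits was 1721.5 bp near genes and 1124 bp far from genes, and the largest among members was 49878 bp.

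**Figure D5:**
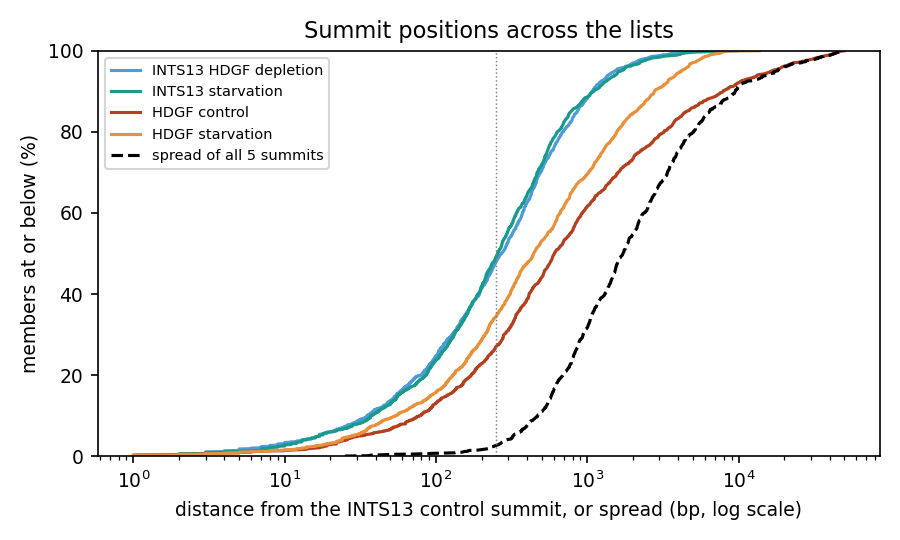
Share of members (vertical axis, percent) whose summit in another list lies at or below a given distance from the INTS13 control summit (horizontal axis, bp, log scale), with the spread of all 5 summits as a dashed line and 250 bp as a dotted line. The INTS13 curves reach 48.1% and 49.3% at 250 bp, the HDGF curves 34.4% and 27.1%, and the dashed line 2.69%.

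Widths differed between lists as well. The members had a median width of 543 bp (200 to 5698), against 291 bp for the other INTS13 control peaks near genes, and 17.7% of members were wider than 1 kb, against 0.610%. A wider interval meets the condition of a shared base more easily, so width is tied to the rule. The strongest overlapping peaks had median widths of 868 bp in INTS13 after depletion, 666.5 bp in INTS13 starvation, 2055 bp in HDGF control and 1940 bp in HDGF starvation. The 1376 members met 1184, 1152, 908 and 952 distinct peaks in those lists. HDGF control had 82 intervals over 10 kb on chromosomes 1 to 22, 47 of which took in 290 members (21.1%). Among the smallest overlaps were those of 1 bp, at TBC1D4 and IBA57, and of 2 bp, at CAPN8.

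The highest folds were found at a few members. C1QTNF3, which encodes a secreted C1q and TNF related protein, had 6 members within 14.7 kb of chromosome 5, and all of its INTS13 control peaks were members. The strongest, at 34189737 to 34194116, had folds of 9.19, 10.8 and 10.1 for INTS13 in control, depleted and starved cells, with HDGF folds of 10.1 and 12.7 in control and starved cells, and ranked in the top 0.401% of every list, but its 5 summits were spread over 3583 bp. Of the 6 members, 4 had all summits within 250 bp. The member at 34186875 to 34187339 had all 5 summits within 42 bp, with folds of 6.49, 8.47 and 4.69 for INTS13 and 5.86 and 4.87 for HDGF. The highest INTS13 control fold of any member, 10.0, was on chromosome 18 at 108058 to 108530, 4394 bp outside LOC124905450, a gene named only by its identifier. Its other folds were 8.47 and 7.11 for INTS13 and 5.60 and 8.54 for HDGF, and the 5 summits lay within 35 bp. How reads that map to several places were counted is not given in the sources used here. Mapping was not checked at these members, so their high folds in every list are not read as binding.

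The strictest match was an interval that shared at least 50% of both intervals with each list and had all summits within 250 bp. It was met by 11 members at 8 genes: 3 at C1QTNF3, 2 beside RASA4, and 1 each at CPZ, GPC5, KATNAL2, KDELR3, LOC124905450 and NBPF12. CPZ, a carboxypeptidase gene, had folds of 4.86, 5.20 and 4.74 for INTS13 and 5.46 and 5.40 for HDGF at 8621127 to 8621345 of chromosome 4, 1497 bp outside the gene, with all summits within 37 bp. KDELR3, which encodes an endoplasmic reticulum retention receptor, had lower folds of 3.11, 3.85 and 3.88 for INTS13 and 2.86 and 3.88 for HDGF, with a spread of 49 bp. NBPF1, NBPF12, RASA4 and GPRIN2 belong to families with near-identical copies, and how reads that map to several copies were counted is not given in the sources used here, so the copy behind these members is uncertain.

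GPRIN2, on chromosome 10, had 15 of its 17 INTS13 control peaks among the members, and a 15.2 kb INTS13 starvation interval took in 10 of them. Its widest member spanned 5698 bp at 46532351 to 46538048, with folds of 4.73, 7.31 and 4.63 for INTS13 and 5.60 and 5.13 for HDGF. NBPF1 had 6 members, all of its INTS13 control peaks, with median folds of 4.93, 6.16 and 4.60 for INTS13 and 6.70 and 6.12 for HDGF. At LIN9, a subunit of the cell cycle repressor complex DREAM, the member at 226308399 to 226310010 had folds of 4.86, 5.58 and 5.61 for INTS13 and 5.33 and 4.60 for HDGF. At COQ8A a member 454 bp outside the gene, upstream, had folds of 5.13, 5.77 and 5.67 for INTS13 and 5.07 and 4.33 for HDGF. The strongest TLE4 member, of 4433 bp, had 5.68, 5.58 and 4.28 for INTS13 and 6.25 and 5.22 for HDGF. The lowest folds in any list were thus 4.60, 4.33 and 4.28 for these LIN9, COQ8A and TLE4 members.

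At the 5 kb limit, WNT9A had a member 5000 bp away, SNAP47 4983 bp and TBCE 4952 bp. The nearest peaks beyond it, at 5111 bp from CAPN9, 5117 bp from TARS3 and 5214 bp from CAPN2, had INTS13 control folds of 3.24, 3.92 and 3.38.

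Genes of the reference lists held members at about the share of all genes. Of 531 protein-coding genes on 18 lists, 5 were nearest to a member, where 1.20% of all protein-coding genes were, and over the alternatives the count ran from 0, with at least 50% of both intervals shared, to 15, without the INTS13 starvation list. Read against that share, the counts of 0 on single lists are not a result about those lists. The count was 0 of 19 genes of Integrator and its partners, 0 of 5 of the HDGF family and 0 of 36 genes of polymerase II pausing and termination. It was 0 of 75 cytosolic ribosomal protein genes, 0 of 57 replication-dependent histone genes, 0 of 38 cell cycle and replication licensing genes, 0 of 35 immediate early genes and 0 of 19 genes for zinc finger and NAB proteins. Among genes of metabolism it was 0 of 24 for glycolysis and glucose uptake, 0 of 32 for oxidative phosphorylation and 0 of 38 for autophagy and the lysosome. Markers of liver, blood, and neurons and glia also had 0, of 16, 19 and 12. When every gene within 5 kb of a summit was counted and not only the nearest, 249 genes held a member and MAZ was the only list gene added.

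SESN2, a stress-induced restraint on mTORC1 that senses leucine, was the only gene of 39 on the list of the integrated stress response and amino acid supply. Its 5 members lay inside the gene, with INTS13 folds of 2.70 to 3.65 in control cells, 3.85 to 4.43 after depletion and 2.78 to 3.59 in starved cells. The HDGF folds were 4.81 in control cells and 3.79 to 4.42 in starved cells. All 5 members lay within a single HDGF control interval, 28269001 to 28284057, so they share that HDGF peak. PRKAG2, an AMPK subunit, was the only gene of 27 on the AMPK and mTOR list. Its member had folds of 2.57, 3.66 and 3.01 for INTS13 and 2.60 and 2.90 for HDGF. The smallest overlap of this member with a list was 33 bp, and its worst rank by −log10 q was only in the top 99.3% of a list. ACTA1 and ACTN2, which encode skeletal muscle actin and alpha-actinin, were 2 of 17 muscle genes, and both lie in the fullest block on chromosome 1. Histone genes in that block that are missing from the list of replication-dependent histones, and were chosen after their values were seen, had members. The clustered histone genes H3-4, H2AC25 and H2BC26 had 5, 2 and 2, so the count of 0 on that list does not cover all clustered histone genes, and the replacement histone gene H3-3A had 4.

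Of the 25 snRNA genes examined, 12 had an INTS13 control peak within 1 kb, 13 had an INTS13 peak after HDGF depletion, 3 had an INTS13 starvation peak, and 4 and 2 had an HDGF peak in control and starved cells. A member lay within 1 kb of 0 of the 25. Members had to lie near protein-coding genes, and 1.20% of those genes were nearest to a member. The count of 0 is thus not a result about snRNA genes. RNU11, an snRNA of the minor spliceosome, had a peak within 1 kb in all 5 lists, with folds of 9.19, 9.24 and 4.28 for INTS13 in control, depleted and starved cells and HDGF folds of 2.99 and 3.61, but the INTS13 control interval there shared no base with an HDGF starvation peak. RNU2-2 had INTS13 folds of 8.11, 8.08 and 4.05 and no HDGF peak within 1 kb. Among other non-coding genes, 49 of 17795 long non-coding RNA genes (0.275%), 5 of 1793 microRNA genes (0.279%) and 1 of 1150 small nucleolar RNA genes (0.087%) shared a base with a member. The microRNA genes included MIR3620 at ARF1, MIR4519 and MIR762 at BCL7C, and MIR6742 at TRIM11.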

How the data were processed

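ChIP-seq of INTS13 and HDGF in HEK293T cells gave 16 samples in 8 groups of 2 labelled replicates, and nothing says whether replicates came from separate cultures. The authors used FastQC, Trimmomatic, Bowtie, Picard and MACS2 on build hg38, per the submitters' processing notes, and the sources used here do not give versions, how replicates were pooled or how inputs were used. Read depth is unknown. Each of the 5 deposited peak lists gives per peak an integer score (10 times the −log10 q, rounded down, as tested in every list), the fold enrichment, the −log10 p-value and −log10 q-value and the summit offset, all the authors' own values, used only to describe, rank or filter within a list. The 6 input samples were not analysed here.

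Overlap meant at least 1 shared base, and where several peaks overlapped a member the one with the highest −log10 q was used. Genes and promoter windows came from RefSeq tables (GRCh38.p14). A member was given to the gene whose body held its summit, otherwise to the gene with the nearest end. Loci joined members up to 10 kb apart. The overlap, distance and merging steps were tested on simulated intervals. Shares have exact Clopper-Pearson 95% intervals for counting error only. Named members were the 12 with the highest INTS13 control −log10 q, the 12 with the smallest worst rank over the lists, up to 4 for each gene list, the 6 widest, the 6 with the most aligned summits and the 3 on either side of the 5 kb limit. The members, gene lists and tissue marker lists were chosen with earlier results of these data known. Some genes are not reported here. Alternatives were a stricter overlap, a −log10 q of at least 2, lists cut to equal length, other gene distances and gene assignments, other merging distances, and leaving out chromosomes 1, 13 and 22. Computation used Python 3.11.15, pandas 2.3.3, NumPy 2.4.6, SciPy 1.17.1 and matplotlib 3.10.9.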

Additional observations from a re-analysis of the deposited data

How the results depend on the processing

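Over all results and alternatives, 38 values stayed near and 37 moved from the values given above (1376 members, 86.6% inside genes, 9.23% at gene boundaries, 2.25% at promoters, 2.69% with all summits within 250 bp, 336 loci and 5 list genes). A count stayed near when it was within 1.5 times the value above, and a share when it was within that value's 95% interval. The causes were not tested beyond what each alternative's construction shows. Requiring at least 50% of both intervals left 25 members at 21 loci, with 76.0% inside genes, 4.0% at boundaries, 4.0% at promoters, 44.0% with summits within 250 bp and 0 list genes. A −log10 q of at least 2 in each list left 3 list genes. Lists cut to the length of the shortest, 15646 peaks, left 607 members, 158 loci and 1 list gene. The share inside genes was 96.0% for a gene distance of 1 kb and 79.3% for 10 kb. Using any gene of the table gave 2247 members at 516 loci, with 80.5% inside, 16.1% at boundaries and 3.92% with aligned summits. Without chromosomes 1, 13 and 22 there were 204 members at 53 loci, with 11.3% at boundaries, 7.35% with aligned summits and 1 list gene. Requiring a summit within 250 bp in each other list left 88 members. Joining over 50 kb gave 158 loci. Added after the data were seen, leaving out the INTS13 starvation list, whose antibody differed, gave 3469 members at 724 loci, with 1.18% at promoters, 6.63% with aligned summits and 15 list genes. Aligned summits were there judged over the remaining lists only. Also added later, leaving out the 8 fullest blocks gave 138 members at 85 loci, with 77.5% inside, 4.35% at promoters, 13% with aligned summits and 3 list genes, and joining over 1 Mb gave 45 loci. No paired analysis was possible because each group has a single peak list, and for the same reason no replicate could be left out. Read depth is unknown, so it cannot be said at what depth a peak missing from a list would have been called.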

Other observations

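Chromosome X was outside the rule. Under the same conditions 12 of its 1606 INTS13 control peaks near protein-coding genes would have been members: 3 at ARMCX5-GPRASP2, 2 at SPANXB1, 2 at TMSB15B and 1 each at BEX3, GAGE2A, GAGE12B, SLC25A53 and TMEM31. The cancer-testis genes SPANXB1, GAGE2A and GAGE12B had the highest INTS13 control folds among them, 6.08 to 6.89 at SPANXB1, 5.68 at GAGE2A and 7.84 at GAGE12B, and belong to families with near-identical copies, so the copy behind them is uncertain. The folds at the other 5 genes ran from 2.70 to 3.65.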
